A study of Homo sapiens with 30 samples.

Results

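PANC-1 cells, an established human line of pancreatic ductal adenocarcinoma (PDAC), were compared after transfection with an siRNA against DDX60L (siDDX60L) and after a control siRNA (siControl). These 6 RNA-seq libraries, 3 per group, were taken by their labels from 30, which cover 5 siRNA groups in each of 2 PDAC lines, PANC-1 and MiaPaCa2. The other PANC-1 groups, siMYEOV, siKCNN4 and siS100A16 (3 libraries each), received siRNAs against further genes linked to PDAC by the study, and the MiaPaCa2 siDDX60L and siControl groups serve for the comparison of lines. The cells carried no other label of genotype or treatment. Values were FPKM, which are read numbers scaled by gene length and by the mapped total of the library, and the test took in the 12513 of 24895 entries that averaged 1 FPKM or more across the 15 PANC-1 libraries. Differences are on the log2(FPKM + 1) scale, siDDX60L minus siControl, with the standard error (SE) and an adjusted p from limma, and a gene was called at an adjusted p below 0.05 and a difference of at least 0.5. The comparison asks which transcripts of PANC-1 cells follow the siRNA, and the genes of NF-kB signalling, invasion, DNA replication and YAP are not described here.

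DDX60L encodes a DExD/H-box helicase, a paralog of the interferon-inducible helicase DDX60, and proteins of this class bind and remodel RNA. An siRNA is a short duplex whose guide strand directs cleavage of fully matched mRNA. The seed of the guide, bases 2 to 8, can also pair with short sites in the 3′ UTR of other mRNAs, and transcripts with such sites can fall. The sequence is therefore shown first, as the design the study names as the effective one among several. The labels do not name the siRNA used for each library. Guide bases 2 to 8 are in capitals.
DDX60L-si-2 sense strand: gagcttgttctcgagtcat
DDX60L-si-2 guide strand: aUGACUCGagaacaagcuc
The sense strand matched chromosome 4 from 169374318 to 169374336 (GRCh37, minus strand), in coding sequence of exon 8 of a DDX60L transcript with 38 exons.

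DDX60L was at 0.516, 0.861 and 0.371 FPKM after siDDX60L, against 1.06, 1.35 and 1.52 FPKM after siControl (log2 difference −0.55 ± 0.12, adjusted p = 0.0025). The groups did not overlap, but the level was near the filter in both, and the difference was −0.49 without siControl replicate 3 and −0.46 without siDDX60L replicate 3, short of the limit of 0.5. DDX60L was at 0.994, 1.11 and 1.13 FPKM after siMYEOV and 3.21, 3.82 and 3.23 FPKM after siKCNN4. After siS100A16 it was at 2.05, 1.44 and 2.03 FPKM, and the gene was not called lower than each of the other siRNAs. Of the other targeted genes, MYEOV was at 15.6, 15.2 and 13.5 FPKM after siDDX60L and 23.2, 23.4 and 25 FPKM after siControl (−0.66 ± 0.06, adjusted p = 3.2e-06), and KCNN4 (−0.33 ± 0.13) and S100A16 (0.19 ± 0.07) were not called.

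Over all tested genes, 1276 (10.2%) were called higher and 919 (7.34%) lower after siDDX60L, 127 and 144 of them by at least 1 on the log2 scale. Of the called genes 58.1% were thus higher. With the median of ratios as the scaling, 942 were higher and 1197 lower (44% higher). The median difference over all tested genes was 0.07, which that scaling removes. Among the lists described here, it also turns the medians of amino acid transporters, sterol synthesis, RNA sensors and helicases, tight junction and polarity, and RNA polymerase II subunits from positive to negative. Of the 1276 higher genes, 519 were called against none of the other 3 siRNAs in either direction, and 71 (0.567% of all tested) were higher against all 3. Of the 919 lower genes, 204 were called against none of the other siRNAs and 109 (0.871% of all tested) were lower against all 3. The comparisons with the other siRNAs share the siDDX60L libraries with that against siControl. Background shares of the direct comparisons were 14.7% higher and 9.08% lower against siMYEOV, 12.7% and 9.77% against siKCNN4, and 10.2% and 13.8% against siS100A16.

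The FPKM of a library summed to 397296 to 407737 after siDDX60L and 386211 to 390252 after siControl, and mitochondrial transcripts took 14.3 to 14.4% and 13.6 to 14.2%. Replicates correlated across genes at r = 0.982 to 0.986 and 0.984 to 0.986, where genes are not independent replicates. FPKM hold no read totals and the study gives only an approximate read number, so depth per library is unknown and no counting interval is given. The methods speak of independent replicates without saying whether the libraries of a group came from separate cultures, so a p value here covers spread from library to library, which may be technical. A fall in FPKM cannot be told apart from a fall in the number of cells that express the gene. Of 9 markers of ductal epithelium, 0 were called higher and 4 lower, with a summed level of 1358 to 1536 FPKM after siDDX60L and 3346 to 3559 FPKM after siControl. The claudin CLDN4, one of these markers and named after its values were seen, swung between libraries of the same group (123, 0.97 and 105.5 FPKM against 3.21, 112 and 237 FPKM) and was not called. Fibroblast (11 to 14.1 FPKM against 10.8 to 12.6 FPKM) and leukocyte markers (33.3 to 39.3 FPKM against 44.7 to 47.9 FPKM) had low sums, with CD68 most of the leukocyte sum and FAP and CD3E at 0 in all 6 libraries, and every endothelial, acinar and islet marker was below 1 FPKM throughout. The part of these marker levels in the results was not tested.

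**Figure D1:**
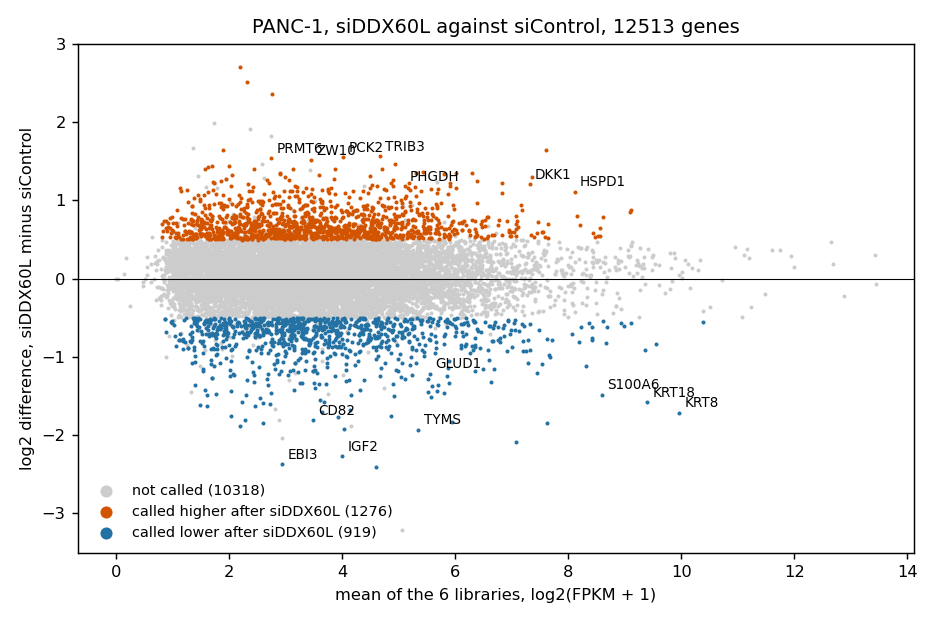
Log2 difference of each of 12513 genes, siDDX60L minus siControl in PANC-1, against the mean of the 6 libraries as log2(FPKM + 1); colours mark the 1276 genes called higher, the 919 called lower and the rest. The named genes include abundant ones, such as KRT8 at −1.72 ± 0.11 and HSPD1 at 1.11 ± 0.04.

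Sites for the guide seed were counted in the annotated 3′ UTR of 11450 tested genes, as CGAGTCA (pairing with bases 2 to 8) or GAGTCAA (bases 2 to 7, then A), on the transcript strand only. Such a 7-base match was present in 961 genes (8.39%). It was present in 154 of the 867 genes called lower after siDDX60L (17.8%), against 65 of the 1150 called higher (5.65%). Among the 109 genes that were called lower than siControl and also lower than each of the other 3 siRNAs, 42 held a match (38.5%), and of 62 such genes that were higher, 3 did (4.84%). Of 330 genes called lower in both lines, 91 held one (27.6%), against 63 of 537 called lower in PANC-1 without a call for lower in MiaPaCa2 (11.7%). The seeds of DDX60L-si-1 and DDX60L-si-3, designs against the same gene, matched 1 (0.917%) and 21 (19.3%) of those 109 genes, and 2.17% and 19.4% of all 11450.

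Sites are more frequent in long 3′ UTRs, so the genes were also split by 3′ UTR length into 4 bins of nearly equal size. In the bin of the shortest 3′ UTRs (30 to 519 bases), 12 of 44 genes with a match were called lower (27.3%), against 6.74% of those without. The shares were 26.1% and 7.17% from 520 to 1317 bases, 18.2% and 7.24% from 1318 to 2699 bases, and 12.4% and 5.92% beyond. The median log2 difference of genes with a match was negative in each bin (−0.20 to −0.04), and that of genes without one was positive (0.06 to 0.10). The median over all tested genes was 0.07, which scaling by the median of ratios removes. Medians by bin were not counted with that scaling, so the positive sign may depend on it. In the shares by gene set, the strand opposite the guide was counted only in the form that pairs with its bases 2 to 8. The guide was counted there in both forms, so the 2 strands' shares are not like for like. It matched 9.02% of all genes, 14% of the genes called lower and 20.2% of the 109. In the form pairing with bases 2 to 8 alone the guide matched 193 genes and the opposite strand 1033. Of these, 16.1% and 11.7% were called lower. In the form ending in A the guide matched 820 genes and the opposite strand 763, with 16.3% and 12.2% called lower. Matches were also found in genes called higher, MSRB3, CCDC85C, ADSL, ATP5PB, IGF2R, TSPAN17, IDH3A and SLC7A1 among those named here, and DDX60L has 1 in its own 3′ UTR. These are descriptions, and how far the seed accounts for the lower levels was not tested.

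**Figure D2:**
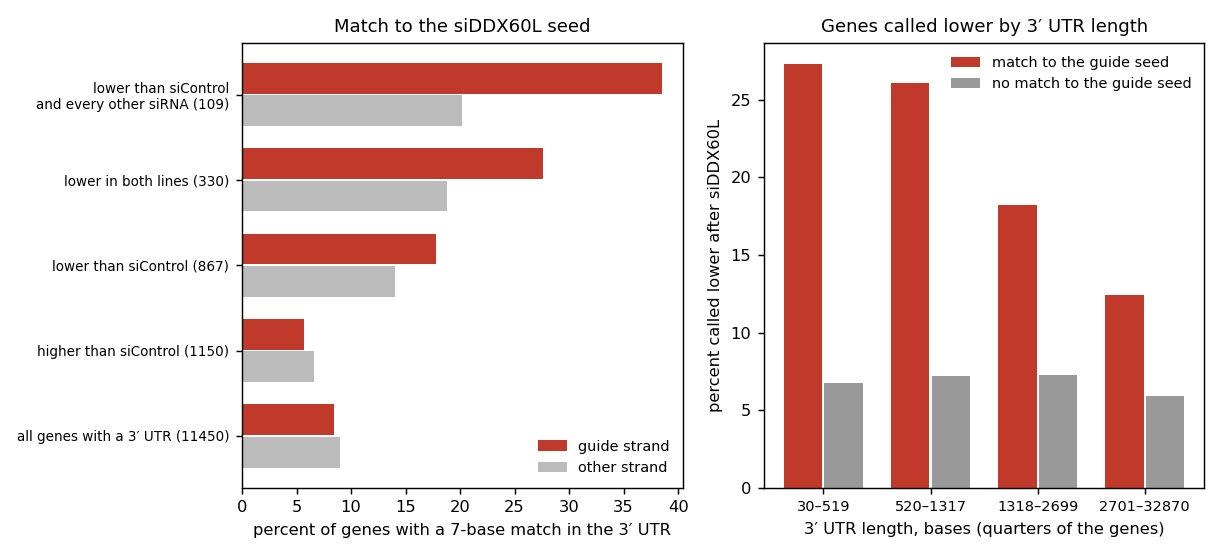
Left, percent of genes with a 7-base match to the seed of the siDDX60L guide strand or of the opposite strand in the 3′ UTR, by gene set (number of genes in brackets); right, percent of genes called lower after siDDX60L in PANC-1, with and without a guide match, in 4 bins of 3′ UTR length. The guide bar reaches 38.5% among the genes lower than in every other PANC-1 group and 8.39% over all genes, and the bar for genes with a match is the taller of the pair in each bin.

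The sites of 7 genes that were lower than in every other PANC-1 group are shown with the flanking 3′ UTR bases (GENCODE transcripts on GRCh37, transcript strand), with the match in capitals.
S100A6: ggtcctctctGAGTCAAatccagtggt
LAMTOR5: gtttatttaaGAGTCAAttgctttcta
GPAT3: aaagaaaagtGAGTCAAagttaatgtg
LRRC57: gaatgtggctGAGTCAAagcctcctgt
SLC35E1: aaaacgtgaaGAGTCAAtcccaaaggg
PPP6R1: aagatacagaGAGTCAAatagagagaa
PHLDA1: gaaacgatttCGAGTCAAgaagacttt
In S100A6 the whole 3′ UTR is 97 bases and the site begins at base 44. PHLDA1, a pleckstrin homology-like protein named here after its values were seen, holds the 8-base form that pairs with bases 2 to 8 and has the A. The other 6 hold the 7-base form ending in A.

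S100A6, a small calcium-binding protein, was at 200.1, 211 and 195 FPKM after siDDX60L, against 540.2, 589 and 577 FPKM after siControl (−1.49 ± 0.07, adjusted p = 8.5e-09). In the 9 libraries of the other siRNAs it lay between 399 and 717 FPKM, so the siDDX60L libraries were the lowest of the 15. LAMTOR5, a subunit of the Ragulator complex that anchors mTORC1 signalling at the lysosome, was at 13.3, 17.7 and 13.1 FPKM against 36.7, 51 and 42.9 FPKM (−1.50 ± 0.19, adjusted p = 3.9e-05). GPAT3, an enzyme of the first acylation step of triglyceride synthesis, was at 8.88, 8.19 and 8.7 FPKM against 21.9, 22.7 and 23.9 FPKM (−1.31 ± 0.05, adjusted p = 6.5e-10). Replicates were close for GPAT3, and it was higher after siKCNN4 (53.2 to 55.4 FPKM) than in any other group. LRRC57 (2.76, 2.56 and 2.72 FPKM against 7.87, 7.89 and 8.1 FPKM), the solute carrier SLC35E1 (3.35, 4.03 and 3.96 FPKM against 11.9, 11.7 and 11.8 FPKM) and PPP6R1, a regulatory subunit of protein phosphatase 6 (38.3, 34.2 and 34.8 FPKM against 79.7, 81.3 and 79 FPKM), had the same order, with differences of −1.28 ± 0.10, −1.43 ± 0.09 and −1.14 ± 0.05.

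HAS3, MRS2, STX6 and USP12 complete the 10 genes of at least 5 FPKM that lay furthest below every other PANC-1 group, ranked by the smallest of their differences from siControl and the other siRNAs and leaving out genes of the pathways not described here (TYMS, one of these, is given with nucleotide synthesis). The 3′ UTR used here held no 7-base guide match for these. HAS3, a hyaluronan synthase, was at 5.23, 4.96 and 5.29 FPKM against 17.5, 16.3 and 17.5 FPKM (−1.56 ± 0.15, adjusted p = 3e-06). MRS2, a mitochondrial magnesium channel, differed by −1.17 ± 0.07 and the deubiquitinase USP12 by −1.25 ± 0.05. The SNARE protein STX6 was at 14.6, 5.16 and 5.52 FPKM against 15.6, 16.5 and 16.7 FPKM (−1.01 ± 0.25). Its first siDDX60L library lay near siControl, within the range after the other siRNAs (14.3 to 17.5 FPKM), and the call was lost in a fit of these 6 libraries alone.

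Among the 71 higher genes, MB, which encodes the oxygen-binding protein myoglobin, was at 8.49, 7.0 and 6.56 FPKM after siDDX60L, against 3.21, 2.93 and 2.61 FPKM after siControl and 1.21 to 2.47 FPKM after the other siRNAs (1.09 ± 0.10 against siControl, adjusted p = 2.2e-06). PHGDH, the enzyme that commits 3-phosphoglycerate to serine synthesis, was at 45.2, 46.8 and 48 FPKM against 19.6, 19.9 and 20.3 FPKM (1.19 ± 0.07, adjusted p = 6.7e-08). It lay between 12.1 and 24.4 FPKM after the other siRNAs, so the siDDX60L libraries stood above the other 12. REEP2, a shaper of endoplasmic reticulum membranes, differed by 1.06 ± 0.07, and the sperm surface protein gene SPA17 by 1.33 ± 0.20. The histone chaperone ASF1B (0.74 ± 0.08), PCYOX1L (0.69 ± 0.06), the asparaginase ASRGL1 (0.71 ± 0.09), the small GTPase RASD2 (0.68 ± 0.09) and the mTORC1 inhibitor DDIT4 (0.66 ± 0.04) were also higher. CCDC85C was at 5.95, 5.14 and 16.2 FPKM against 4.25, 3.94 and 4.27 FPKM (0.81 ± 0.28), and without siDDX60L replicate 3 the difference was 0.34 and not called. The call was also lost without any 1 siControl library (0.78 to 0.82, adjusted p = 0.056 to 0.070).

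**Figure D3:**
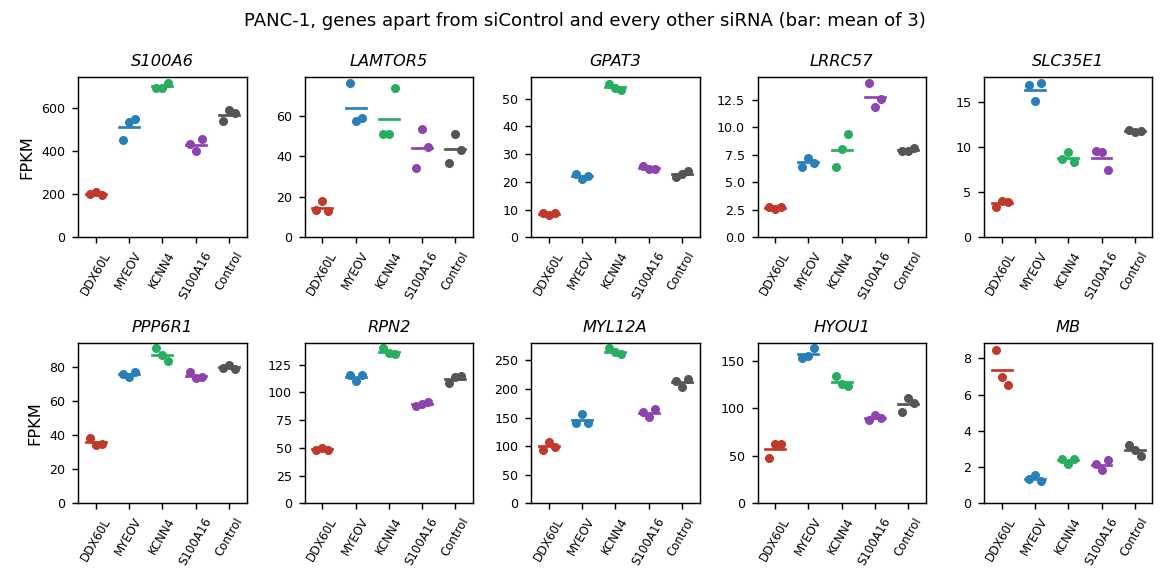
FPKM of 10 genes (1 panel each) in the 15 PANC-1 libraries, in columns siDDX60L, siMYEOV, siKCNN4, siS100A16 and siControl; points are libraries and bars are means of 3. The siDDX60L points are the lowest of the 15 for S100A6 (195 to 211 FPKM) and the highest for MB (6.56 to 8.49 FPKM). The lower genes drawn all hold a guide match. HAS3, MRS2, STX6 and USP12, which hold none and are among the furthest below every other group, are not drawn.

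The largest rises came from several processes, counted among genes that averaged 5 FPKM or more in these 6 libraries, carried an Ensembl identifier and had groups that did not overlap. PRMT6, an arginine methyltransferase that modifies histone H3, was at 9.49, 8.45 and 9.02 FPKM after siDDX60L, against 2.3, 2.45 and 2.52 FPKM after siControl (1.54 ± 0.08, adjusted p = 1.3e-08). ZW10, which recruits dynein to kinetochores, was at 14.1, 15.3 and 15.8 FPKM against 4.95, 4.54 and 4.42 FPKM (1.51 ± 0.05, adjusted p = 6.3e-10). PRMT6 was not called against the other siRNAs (siDDX60L minus siMYEOV 0.32 ± 0.08, minus siKCNN4 0.07 ± 0.08, minus siS100A16 0.11 ± 0.08), and neither was ZW10 (0.26 ± 0.05 against siMYEOV, 0.22 ± 0.05 against siKCNN4 and 0.36 ± 0.05 against siS100A16). EMC6 (1.47 ± 0.08), a subunit of the complex that inserts membrane proteins, VOPP1 (1.37 ± 0.06), the dynein heavy chain domain gene DNHD1 (1.36 ± 0.10) and the splicing factor U2AF1 (1.35 ± 0.25) rose as well. MSRB3, a methionine sulfoxide reductase, was at 6.22, 11.5 and 18.3 FPKM against 3.63, 3.36 and 3.68 FPKM (1.40 ± 0.46, adjusted p = 0.022). Its siDDX60L libraries were widely spread, and the call was lost without siControl replicate 2, siDDX60L replicate 2 or siDDX60L replicate 3, with differences of 1.06 to 1.38.

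Among the genes of that level that fell most, EBI3 is described with its pathway. The secreted growth factor IGF2 was at 5.23, 3.9 and 4.33 FPKM after siDDX60L, against 27.7, 24.3 and 24.5 FPKM after siControl (−2.28 ± 0.12, adjusted p = 1.6e-08). Its 3′ UTR held 1 guide match. It was not called against siMYEOV (siDDX60L minus siMYEOV −0.03 ± 0.12) and was lower than after siKCNN4 (−2.22 ± 0.12) and siS100A16 (−2.06 ± 0.12). CD82, a tetraspanin known as a metastasis suppressor, was at 4.24, 3.93 and 3.73 FPKM against 16.3, 16.7 and 16.3 FPKM (−1.81 ± 0.06, adjusted p = 4.9e-10). It was at 2.39 to 2.48 FPKM after siMYEOV, 10.45 to 11.86 FPKM after siKCNN4 and 5.46 to 6.2 FPKM after siS100A16. C4orf48 (4.4, 5.12 and 8.15 FPKM against 21.3, 29.1 and 23.6 FPKM, −1.92 ± 0.33), the transcriptional coactivator CITED4 (−1.77 ± 0.24), the splicing regulator MBNL2 (−1.76 ± 0.13), the TNF receptor TNFRSF1B (−1.68 ± 0.05), the adenosine receptor ADORA2A (−1.60 ± 0.24) and the secreted protein CRISPLD2 (−1.59 ± 0.09) also fell. JUND, an AP-1 subunit, was at 5.64, 6.52 and 2.92 FPKM against 17.5, 17.1 and 19.2 FPKM (−1.70 ± 0.40, adjusted p = 0.0032). After siMYEOV and siKCNN4, C4orf48 lay between 2.85 and 11.4 FPKM, CITED4 between 3.75 and 9.05 FPKM and ADORA2A between 1.53 and 3.22 FPKM. After siS100A16 these 3 were at 22.3 to 31.8, 18.8 to 34 and 4.65 to 8.01 FPKM. CRISPLD2 was at 1.06 to 1.93 FPKM after siMYEOV and siS100A16 and 9.19 to 9.29 FPKM after siKCNN4. MBNL2 was at 17.94 to 25.55 FPKM after the other siRNAs.

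Many genes of the amino acid stress response were called higher. ATF4 is a transcription factor that is translated when amino acids are short or the endoplasmic reticulum is stressed, and it induces amino acid synthesis, transport and tRNA charging. Of its response list, 10 of 22 tested members were called higher and 2 lower (median 0.48), beside 10.2% and 7.34% of all tested genes. PCK2, the mitochondrial phosphoenolpyruvate carboxykinase, was at 25.1, 20.6 and 23.4 FPKM after siDDX60L, against 6.68, 7.87 and 6.98 FPKM after siControl (1.55 ± 0.07, adjusted p = 8e-09). The pseudokinase TRIB3, a feedback inhibitor of ATF4, was at 37.6, 37 and 36.4 FPKM against 12.4, 11.9 and 11.1 FPKM (1.57 ± 0.12, adjusted p = 5.9e-07). The groups did not overlap for either, but TRIB3 was lower than after siMYEOV (−0.61 ± 0.12) and PCK2 was not called against it (0.18 ± 0.07). The alanine transaminase GPT2 (1.18 ± 0.06) and cystathionine gamma-lyase, CTH (1.02 ± 0.12), rose by at least 1 on the log2 scale. The members that fell were EIF4EBP1, a repressor of translation initiation (−0.84 ± 0.08), and CEBPB, named after its values were seen (−0.81 ± 0.13).

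Lists of enzymes and carriers around that response were counted separately, beside the same 10.2% higher and 7.34% lower over all tested genes. Of the cytosolic aminoacyl-tRNA synthetases, which charge tRNAs, 6 of 20 tested members were called higher and 0 lower (median 0.33), with HARS (0.73 ± 0.10), AARS (0.70 ± 0.04), LARS (0.57 ± 0.08) and KARS (0.57 ± 0.07) the furthest. With the median of ratios 2 of the 20 were called higher. Of the serine, glycine and one-carbon enzymes, 2 of 12 tested members were called higher and 0 lower (median 0.10), PHGDH and the next enzyme of the pathway, PSAT1 (0.62 ± 0.04). Of the amino acid transporters, 3 of 14 tested members were called higher and 1 lower (median 0.01). SLC7A1, a carrier of cationic amino acids (0.61 ± 0.04), SLC7A5, a carrier of large neutral ones (0.60 ± 0.23), and its partner SLC3A2 (0.56 ± 0.09) were the higher ones, and SLC36A1 was lower (−0.68 ± 0.16). Scaled by the median of ratios, 1 transporter was called higher and 3 lower. The SLC3A2 difference was 0.48 without siDDX60L replicate 1, short of the limit of 0.5. The SLC7A5 call, at adjusted p = 0.043, was lost without any 1 of the 6 libraries.

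Nucleotide synthesis genes went both ways, beside 10.2% higher and 7.34% lower over all tested genes. Of the pyrimidine and dNTP list, 7 of 21 tested members were called higher and 3 lower (median 0.40). TYMS, thymidylate synthase, was at 14.6, 16.2 and 16.8 FPKM after siDDX60L, against 65.7, 60.6 and 64 FPKM after siControl (−1.94 ± 0.07, adjusted p = 5e-10), and was lower than after each other siRNA. The ribonucleotide reductase subunit RRM2 (0.97 ± 0.16) and UMPS, of the last steps of UMP synthesis (0.87 ± 0.15), were higher. Of the purine list, 2 of 15 tested members were called higher and 0 lower (median 0.22), APRT (0.54 ± 0.10) and ADSL (0.79 ± 0.28, adjusted p = 0.034), and 0 were called with the median of ratios. The ADSL call was lost with a replicate block (adjusted p = 0.051) and without any 1 library but siDDX60L replicate 2 (0.67 to 0.85, adjusted p = 0.053 to 0.11), and the APRT difference was 0.48 without siControl replicate 1.

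Genes of gp130 cytokine signalling were called lower or not at all. gp130, encoded by IL6ST, is the shared receptor chain for IL-6 family cytokines, which signal through JAK kinases and STAT3, and SOCS proteins are induced inhibitors of that pathway. In this list 0 of 19 tested members were called higher and 10 lower (median −0.59), the highest share called lower among the 51 lists shown. Among ligands, EBI3, a subunit of IL-27 and IL-35, was at 1.04, 1.94 and 1.54 FPKM after siDDX60L, against 11.9, 12.1 and 11.5 FPKM after siControl (−2.37 ± 0.14, adjusted p = 5.6e-08). Of the receptors, IL6ST was at 15.4, 25.8 and 16.6 FPKM against 52.4, 44.6 and 45.5 FPKM (−1.29 ± 0.16, adjusted p = 2.1e-05). Both had groups well apart, and both were lower still after siMYEOV (siDDX60L minus siMYEOV 0.86 ± 0.14 for EBI3 and 0.81 ± 0.16 for IL6ST). The 3′ UTR of IL6ST held 1 guide match.

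Of the inhibitors, SOCS3 was at 18.3, 17.5 and 19.1 FPKM against 44, 46.5 and 44.7 FPKM (−1.25 ± 0.05, adjusted p = 1e-09), and SOCS1 at 0.823, 0.263 and 0.377 FPKM against 4.36, 2.67 and 3.81 FPKM (−1.63 ± 0.16, adjusted p = 3e-06). SOCS3 was lower still after siKCNN4 (0.58 ± 0.05). The other called members, named after their values were seen, were JAK1 (−0.78 ± 0.04), SOCS2 (−0.70 ± 0.15), the ligands IL11 (−0.69 ± 0.09) and LIF (−0.59 ± 0.04), and the receptors IL27RA (−0.68 ± 0.08) and LIFR (−0.61 ± 0.05).

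**Figure D4:**
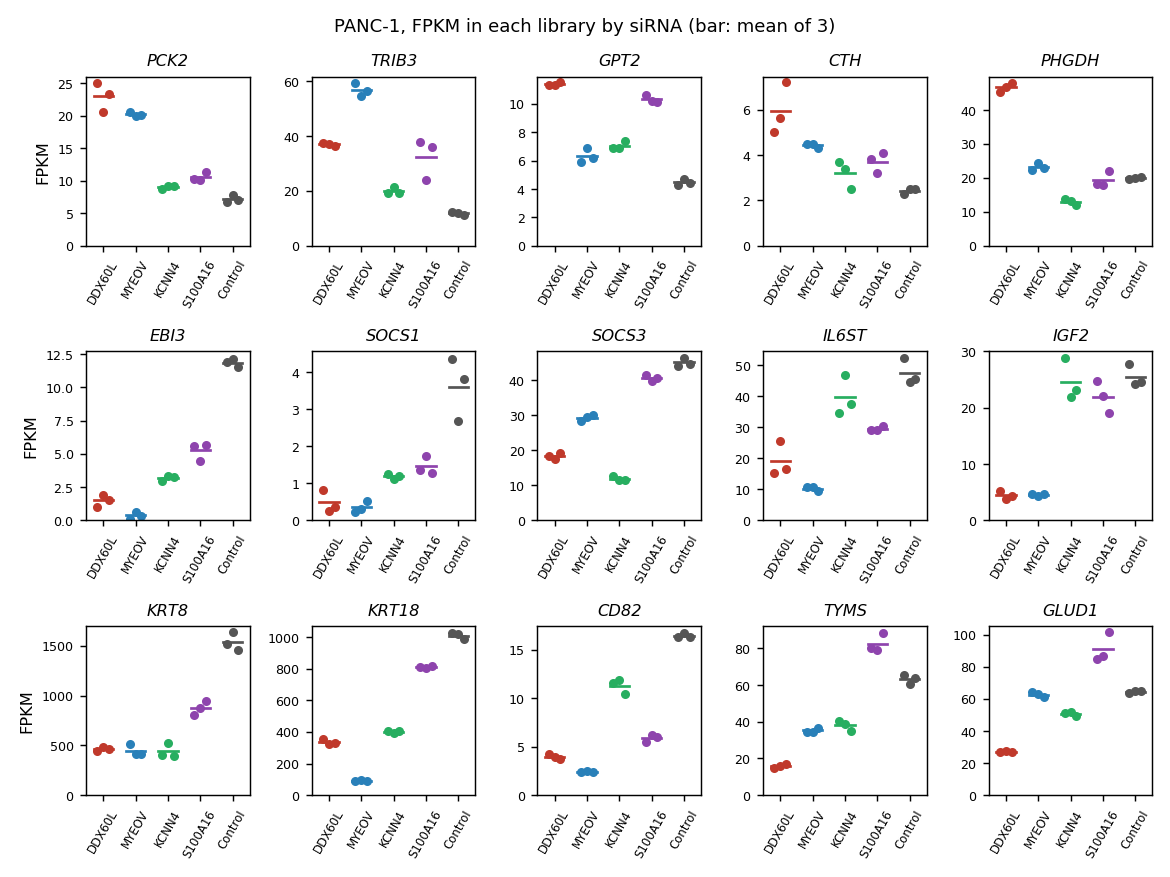
FPKM of 15 genes (1 panel each) in the 15 PANC-1 libraries, in columns siDDX60L, siMYEOV, siKCNN4, siS100A16 and siControl; points are libraries and bars are means of 3, and each axis starts at 0. Top row, genes of the amino acid stress response and of serine synthesis, higher after siDDX60L than after siControl. Middle and bottom rows, genes that were lower, several of them low after siMYEOV too.

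In the lists of interferon-stimulated, MHC and NK ligand genes, more members were called lower than higher. The shares over all tested genes were 10.2% higher and 7.34% lower. Interferon-stimulated genes stood at 6.9% and 20.7%, and RNA sensors and helicases, at 8.33% each, were near the background. Of the interferon-stimulated genes, 2 of 29 tested members were called higher and 6 lower (median −0.17). UBE2L6, the conjugating enzyme for ISG15, was at 6.02, 6.33 and 6.86 FPKM after siDDX60L, against 18.6, 16.9 and 18.3 FPKM after siControl (−1.36 ± 0.06, adjusted p = 8.5e-09). IFIT2 (−1.18 ± 0.06), the transcription factor IRF1 (−0.97 ± 0.16) and GBP2 (−0.59 ± 0.12) fell too, and IFI6 rose (0.58 ± 0.08). The GBP2 difference was −0.47 without siControl replicate 3. Of the RNA sensors and helicases, a list that includes proteins of the class of DDX60L, 2 of 24 tested members were called higher and 2 lower (median 0.05). Under the median of ratios 1 of the 24 was called higher and 4 lower. DDX58, the RIG-I sensor (−0.74 ± 0.05, a guide match), and IFIH1, the MDA5 sensor (−0.59 ± 0.10), were lower, and the helicase DDX1 (0.57 ± 0.05) and the Ski complex subunit WDR61 (0.60 ± 0.10) higher. DDX58 was at 8.7 to 9.8 FPKM after siDDX60L and no higher after siMYEOV (8.2 to 8.6 FPKM) and siS100A16 (7.9 to 8.2 FPKM). After siKCNN4 it was at 15.7 to 16.8 FPKM.

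Of the MHC class I and II genes, 1 of 21 tested members was called higher and 6 lower (median −0.19). CD74, the invariant chain of MHC class II, was at 3.11, 2.62 and 2.19 FPKM against 7.97, 8.26 and 8.59 FPKM (−1.36 ± 0.15, adjusted p = 1.2e-05), and the class I gene HLA-F at 3.35, 6.17 and 3.92 FPKM against 11.3, 14.3 and 12 FPKM (−1.33 ± 0.16). Reads of HLA genes can be shared among near-identical copies. CD74 was at 0.428 to 1.44 FPKM after siMYEOV, 1.93 to 2.02 FPKM after siKCNN4 and 2.78 to 3.08 FPKM after siS100A16. HLA-F was at 0.574 to 0.935 FPKM, 5.98 to 7.06 FPKM and 2.94 to 3.79 FPKM in that order. B2M, the class I light chain, was at 619, 681 and 358 FPKM against 929.7, 977 and 941 FPKM (−0.83 ± 0.25, adjusted p = 0.013). Its siDDX60L replicate 3 was far below the others, and without it the gene was not called (−0.55). After the other siRNAs B2M lay between 366.8 and 718.9 FPKM. TAPBP, the tapasin chaperone, fell (−0.85 ± 0.06) and held a guide match, and the chaperone CALR rose (0.54 ± 0.04). Of the NKG2D and activating NK ligands, 0 of 11 tested members were called higher and 2 lower (median −0.25), ULBP3 (−0.92 ± 0.15) and MICB (−0.65 ± 0.04). MICB was at 62.85 to 66.6 FPKM after siDDX60L and 73.05 to 76.67 FPKM after siKCNN4. It was lower still after siMYEOV (42 to 43 FPKM) and siS100A16 (27.9 to 30.3 FPKM).

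The keratins of simple epithelium had the largest falls in mean FPKM among the genes that could be named. Keratin 8 and keratin 18 pair to form the filaments of ductal cells. KRT8 was at 447, 483 and 466 FPKM after siDDX60L, against 1522, 1636 and 1454 FPKM after siControl (−1.72 ± 0.11, adjusted p = 8.8e-08). KRT18 was at 354, 327 and 327 FPKM against 1023, 1017 and 986 FPKM (−1.58 ± 0.04, adjusted p = 6.1e-11). The means were 30.3% and 33.3% of those after siControl, and no siDDX60L library came near a siControl library. Against the other siRNAs, KRT8 was not called against siMYEOV (0.06 ± 0.11) or siKCNN4 (0.09 ± 0.11) and was lower than after siS100A16 (−0.90 ± 0.11), while KRT18 was higher than after siMYEOV (1.86 ± 0.04), was not called against siKCNN4 (−0.25 ± 0.04) and was lower than after siS100A16 (−1.27 ± 0.04). Of the intermediate filament list, 1 of 13 tested members was called higher and 5 lower (median −0.49), with KRT15 (−1.32 ± 0.17) and KRT7 (−0.90 ± 0.16) also lower and the lamin LMNB2 higher (0.73 ± 0.03). The genes of both keratins lie next to each other on chromosome 12 (KRT8 from 53290971 to 53343738, KRT18 from 53342655 to 53346690, GRCh37), their annotated ends overlap on opposite strands, and whether the counting used strand is not given in the sources used here.

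Junction and cytoskeleton genes went both ways. Background shares over all tested genes were 10.2% higher and 7.34% lower. Of the tight junction and polarity genes, 1 of 24 tested members was called higher and 3 lower (median 0.06). The polarity protein PARD6B was at 4.32, 4.7 and 4.55 FPKM against 13.2, 12.5 and 13.2 FPKM (−1.34 ± 0.07, adjusted p = 2.4e-08), and E-cadherin, CDH1, fell (−0.91 ± 0.08). CLDN12 was called higher (0.81 ± 0.29, adjusted p = 0.034), at 18.6, 21.4 and 21.3 FPKM against 10.1, 18.3 and 7.43 FPKM. That call was lost with a replicate block (adjusted p = 0.055), with the median of ratios, and without any 1 of the 6 libraries except siControl replicate 2 (0.55 to 0.88, adjusted p = 0.052 to 0.15). Of the actin, myosin and tropomyosin genes, 4 of 29 tested members were called higher and 6 lower (median −0.01). The myosin light chain MYL12A (−1.08 ± 0.06, a guide match), LIMA1 (−1.02 ± 0.18) and vinculin, VCL (−0.93 ± 0.09), fell, and tropomyosin TPM4 rose (1.15 ± 0.20). TPM4 was at 98.4, 56.6 and 58 FPKM, with the first siDDX60L library the highest, against 32.1, 30 and 29.4 FPKM.

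ARF3, a GTPase of Golgi transport, was at 23.1, 24.6 and 23.3 FPKM after siDDX60L, against 65, 66 and 68.2 FPKM after siControl (−1.45 ± 0.04, adjusted p = 6.2e-11), and RAC1, which drives lamellipodia, was higher at 189, 184 and 188 FPKM against 103, 97.6 and 104 FPKM (0.87 ± 0.03, adjusted p = 1.8e-09). RHOB (−0.76 ± 0.07) was lower, and ARL1 too (−0.70 ± 0.17). Of the annexins, which bind membranes with calcium, 4 of 8 tested members were called higher and 0 lower (median 0.34), with ANXA4 (0.76 ± 0.07), ANXA7 (0.76 ± 0.07), ANXA1 (0.71 ± 0.08) and ANXA6 (0.54 ± 0.04). ANXA1 was at 61.3 to 68.8 FPKM after siDDX60L and higher after the other siRNAs (71 to 134.6 FPKM). ANXA7 was higher after siMYEOV (62.2 to 68 FPKM against 53.2 to 54.5 FPKM), and ANXA6 after siKCNN4 (42.3 to 43.9 FPKM against 36.5 to 38.9 FPKM). ANXA4 was at 34.7 to 41.3 FPKM after siDDX60L and 23.9 to 36.2 FPKM after the other siRNAs. Of the tetraspanins, 1 of 17 tested members was called higher and 1 lower (median −0.08), CD82 lower and TSPAN17 higher (0.67 ± 0.19). These shares (5.88% each) were below those over all tested genes, 10.2% and 7.34%. Without siDDX60L replicate 2 the TSPAN17 difference was 0.47 and not called.

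In several receptor and growth signalling lists more genes were called lower than higher. Over all tested genes 10.2% were called higher and 7.34% lower. The shares of the lysosomal nutrient-sensing genes (4.17% and 8.33%) and the IGF genes (10% and 10%) were near or below these. Of the insulin, PI3K and AKT pathway, 1 of 28 tested members was called higher and 6 lower (median −0.12). The kinase AKT1 was the 1 that rose, at 59, 46.5 and 43.3 FPKM after siDDX60L, against 22.3, 20.7 and 22.8 FPKM after siControl (1.13 ± 0.12, adjusted p = 5.1e-06). RPS6KB1, the S6 kinase below mTORC1, was at 4.37, 4.96 and 5.06 FPKM against 11.6, 11 and 11.1 FPKM (−1.08 ± 0.06, adjusted p = 2.9e-08), with 1 guide match in its 3′ UTR. The phosphatase PTPN1 (−0.88 ± 0.06) and the mTORC1 inhibitor TSC2 (−0.69 ± 0.09) fell. Of the lysosomal nutrient-sensing genes, 1 of 24 tested members was called higher and 2 lower (median 0.11), LAMTOR5 and TFE3 (−0.59 ± 0.23, a guide match) lower and the Rag GTPase RRAGB higher (0.64 ± 0.12). Of the IGF genes, 1 of 10 tested members was called higher and 1 lower (median −0.08), IGF2 lower and its clearance receptor IGF2R higher (0.69 ± 0.05). The TFE3 call was lost without any 1 of the 6 libraries (adjusted p = 0.062 to 0.11), and the RRAGB difference was 0.46 without siControl replicate 1.

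The growth factor receptor gene EGFR, with 1 guide match, was at 34, 36.1 and 37.2 FPKM against 62.1, 63.5 and 64 FPKM (−0.81 ± 0.04, adjusted p = 8.5e-09), and its feedback inhibitor ERRFI1 at 237, 252 and 264 FPKM against 436, 431 and 437 FPKM (−0.79 ± 0.04). EGFR was at 36 to 37 FPKM after siKCNN4, 41 to 42 FPKM after siMYEOV and 49 to 52 FPKM after siS100A16. The ligand AREG was higher (0.77 ± 0.11), and of the whole EGF family list 1 of 7 tested members was called higher and 2 lower (median −0.25). AREG was at 3.44 to 4.91 FPKM after siDDX60L. It was higher after siMYEOV (10.77 to 11.15 FPKM), siKCNN4 (21.9 to 26 FPKM) and siS100A16 (9.12 to 11.3 FPKM). Axon guidance genes include ephrins, semaphorins and their receptors, and of these 3 of 28 tested members were called higher and 8 lower (median −0.23). The ligands EFNB1 (−0.78 ± 0.07) and SEMA7A (−0.77 ± 0.10) were lower, and the netrin NTN4 (0.84 ± 0.13) and EFNB2 (0.76 ± 0.06) higher. Of the TGF-beta and BMP genes, 1 of 29 tested members was called higher and 4 lower (median −0.12), with the co-receptor TGFBR3 at 2.11, 1.91 and 1.98 FPKM against 6.78, 9.04 and 7.23 FPKM (−1.53 ± 0.11) and SMAD3 at −0.92 ± 0.14, with a guide match. The inhibitor SMAD6 was lower (−0.68 ± 0.08) and the target ID3 higher (0.58 ± 0.06). The ID3 difference was just short of the limit without siDDX60L replicate 1.

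In the cyclic AMP list 6 of 15 tested members were called higher and 1 lower (median 0.25), with the PKA subunit PRKAR1B (0.73 ± 0.13), the phosphodiesterases PDE7A (0.66 ± 0.05) and PDE8A (0.63 ± 0.07) and the cyclase ADCY3 (0.63 ± 0.08) higher and PDE4A lower (−0.51 ± 0.05). Cyclases make cyclic AMP and phosphodiesterases break it down, so genes on both sides rose. Of the WNT receptors and effectors, 3 of 23 tested members were called higher and 3 lower (median 0.12). The secreted WNT inhibitor DKK1 was at 226, 216 and 222 FPKM against 93.2, 94.5 and 97.7 FPKM (1.21 ± 0.04, adjusted p = 1.6e-10), with TCF7L1 at 0.74 ± 0.09, FZD5 at −0.70 ± 0.07 with 2 guide matches and TCF7L2 at −0.63 ± 0.16. Of the Notch genes, 1 of 15 tested members was called higher and 2 lower (median −0.10), the ligand JAG1 (−0.73 ± 0.05) and NRARP (−0.54 ± 0.08) lower and HEY1 higher (0.51 ± 0.09). The WNT list stood at 13% each way and the Notch list at 6.67% higher and 13.3% lower. All tested genes stood at 10.2% and 7.34%. Differences of 4 genes came inside the limit of 0.5 without 1 library, namely PDE4A (siControl replicate 1 or siDDX60L replicate 2, −0.50 each), TCF7L2 (siDDX60L replicate 2, −0.49), NRARP (siControl replicate 2, −0.49, or siDDX60L replicate 1, −0.48) and HEY1 (siDDX60L replicate 2, 0.49, or 3, 0.47).

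Among mitochondrial genes more were called higher than lower, at shares not far from that over all genes except in fatty acid oxidation. Of respiratory complex I, 5 of 37 tested members were called higher and 1 lower (median 0.24), and of cytochrome oxidase and ATP synthase, 5 of 30 tested members were called higher and 1 lower (median 0.25). NDUFB6 (0.93 ± 0.10), NDUFA8 (0.83 ± 0.05) and the copper chaperone COX17 (0.92 ± 0.06) were the furthest up, ATP5PB (0.74 ± 0.05), ATP5F1C (0.62 ± 0.07) and COX7C (0.60 ± 0.19) followed, and NDUFA3 (−0.74 ± 0.15) and ATP5F1D (−0.55 ± 0.12) were lower. Of the fatty acid oxidation enzymes, 5 of 18 tested members were called higher and 0 lower (median 0.34), with ECI1 (0.92 ± 0.13), ACAT1 (0.82 ± 0.05), ETFB (0.79 ± 0.09) and ACADM (0.54 ± 0.07). Of the TCA cycle and anaplerosis list, 4 of 29 tested members were called higher and 1 lower (median 0.08), with ME2 (0.69 ± 0.25) and IDH3A (0.61 ± 0.17) among the higher ones. GLUD1, glutamate dehydrogenase, which feeds the cycle from glutamate, was at 26.8, 27.4 and 27.2 FPKM after siDDX60L, against 63.7, 64.6 and 64.9 FPKM after siControl (−1.22 ± 0.06, adjusted p = 7.1e-09), below each other siRNA. Citrate synthase, CS, was at 70.2, 89.7 and 78.5 FPKM against 53.2, 24.2 and 58.2 FPKM (0.89 ± 0.23), and without its low siControl replicate 2 the difference was 0.50 and not called. Calls were also lost for COX7C without siControl replicate 2 or 3 or siDDX60L replicate 1 (0.43 to 0.52), ME2 without siControl replicate 2 or siDDX60L replicate 3 (0.49 each), IDH3A without siControl replicate 3 (0.47) and ACADM without siDDX60L replicate 2 (0.48). In fatty acid oxidation 3 genes were called higher and 0 lower with the median of ratios.

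Genes of lipid and sugar metabolism followed. Glycolysis and glycogen (12% called higher and 8% lower) was near the shares over all tested genes, 10.2% and 7.34%. Of the glycerolipid list, 1 of 23 tested members was called higher and 6 lower (median −0.24). Beside GPAT3, the phosphatase PLPP3 (−0.96 ± 0.09) and the ethanolamine kinase ETNK1 (−0.65 ± 0.15) fell, and AGPAT1, which carries out the second acylation, rose at 71.8, 62.9 and 64.2 FPKM against 35, 32.9 and 35.2 FPKM (0.93 ± 0.05, adjusted p = 4.7e-08). Of the sterol synthesis enzymes, 1 of 24 tested members was called higher and 0 lower (median 0.03), PMVK (0.61 ± 0.05). Of glycolysis and glycogen, 3 of 25 tested members were called higher and 2 lower (median 0.13), with the phosphofructokinase PFKL (0.87 ± 0.05) and GPI (0.59 ± 0.13) higher and the glycogen phosphorylase PYGL (−0.86 ± 0.05) and ALDOC (−0.57 ± 0.07) lower. The GPI difference was 0.50 without siControl replicate 1 and 0.49 without siControl replicate 2, both short of the limit, and with the median of ratios 2 glycolysis genes were called higher and 2 lower.

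Called genes of kinetochores and of cilia were higher without exception. Of the kinetochore and spindle checkpoint list, 8 of 31 tested members were called higher and 0 lower (median 0.26), ZW10 first, then the motor CENPE (0.82 ± 0.08), MAD1L1 (0.66 ± 0.07) and SPC25 (0.64 ± 0.11), and 8 higher and 0 lower were counted with the median of ratios. Intraflagellar transport builds the cilium, and of that list with the BBSome 7 of 21 tested members were called higher and 0 lower (median 0.25). IFT27 was at 21.6, 19.1 and 20 FPKM against 7.4, 7.71 and 6.08 FPKM (1.40 ± 0.13, adjusted p = 1.9e-06), and IFT46 at 6.03, 5.87 and 6.24 FPKM against 2.19, 1.96 and 1.98 FPKM (1.21 ± 0.06, adjusted p = 7.8e-09). IFT52 (0.84 ± 0.08) and IFT22 (0.64 ± 0.08) followed. IFT27 was not called against any of the other siRNAs (0.03 ± 0.13, −0.24 ± 0.13 and 0.31 ± 0.13 against siMYEOV, siKCNN4 and siS100A16). Of the cilium list 5 were called higher and 0 lower with the median of ratios.

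Cell cycle regulators and death genes went both ways. In these lists 8.33 to 15% of tested members were called higher and 0 to 25% lower, beside 10.2% and 7.34% of all tested genes. Of the cyclins, CDKs and CDK inhibitors, 3 of 20 tested members were called higher and 3 lower (median 0.24), with CCNE2 (1.11 ± 0.08) and RBL1 (0.85 ± 0.07) higher and CDKN1C (−1.10 ± 0.14) and E2F5 (−0.84 ± 0.16) lower. Of the p53 targets, 3 of 24 tested members were called higher and 6 lower (median −0.0016). PANC-1 cells carry mutant p53. The inhibitor of CDKs CDKN1A (−0.78 ± 0.28, adjusted p = 0.036), ZMAT3 (−0.98 ± 0.12), PLK3 (−0.92 ± 0.09) and GADD45A (−0.78 ± 0.09) fell and the damage sensor XPC rose (0.76 ± 0.07). Of the BCL2 family, 1 of 12 tested members was called higher and 2 lower (median −0.07), BMF (−1.13 ± 0.12) and MCL1 (−0.58 ± 0.04) lower and BCL2L13 higher (0.57 ± 0.10). Of the death receptors and caspases, 3 of 21 tested members were called higher and 1 lower (median −0.01), with TNFRSF21 lower (−0.91 ± 0.05) and cytochrome c, CYCS (0.69 ± 0.06), CASP6 (0.59 ± 0.06) and the adaptor TRADD (0.54 ± 0.08) higher. Of the replication-dependent histones, 1 of 11 tested members was called higher and 0 lower (median 0.25), HIST1H2BD (1.18 ± 0.11). The CDKN1A call was lost without any 1 of the 6 libraries (−0.80 to −0.74, adjusted p = 0.068 to 0.089). Its groups did not overlap, at 27.45, 29.5 and 28.71 FPKM after siDDX60L against 48.12, 52.29 and 48.44 FPKM after siControl. The SE pools the spread within all PANC-1 groups. In these, siKCNN4 replicate 3 (60.41 FPKM) and siS100A16 replicate 2 (44.38 FPKM) lay well above the other libraries of their groups. How far that spread ended the call was not tested. Below the limit of 0.5 were BCL2L13 without siControl replicate 3 (0.49) and TRADD without replicate 3 of siDDX60L or of siControl (0.47 each). With the median of ratios 1 p53 target was called higher and 6 lower, and 2 death receptor and caspase genes higher and 2 lower.

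Protein folding and secretion genes were called in both directions. Over all tested genes 10.2% were called higher and 7.34% lower. The ER membrane complex and N-glycan list (15.6% and 9.38%) was above both shares, and the other lists of this paragraph were below both. Of the ER chaperones, 0 of 21 tested members were called higher and 1 lower (median 0.08), HYOU1, at 47.6, 62 and 62.5 FPKM against 95.9, 110.3 and 106 FPKM (−0.86 ± 0.09, a guide match). Of the ER membrane complex and N-glycan list, 5 of 32 tested members were called higher and 3 lower (median −0.01). The oligosaccharyltransferase subunit RPN2 was at 48.5, 49.6 and 48.3 FPKM against 108, 114 and 115 FPKM (−1.19 ± 0.04, adjusted p = 2.9e-10, a guide match), EMC10 was lower (−1.05 ± 0.16, a guide match), and the glucosidase GANAB was higher (1.25 ± 0.15). Of the heat shock list, which holds cytosolic chaperones and the mitochondrial chaperonin, 1 of 17 tested members was called higher and 1 lower (median −0.08), the chaperonin gene HSPD1 higher and BAG3 lower (−0.50 ± 0.05, a guide match). BAG3 was at 57.3 to 61 FPKM after siDDX60L and at 50.6 to 63.9 FPKM after the other siRNAs. Of the lysosomal enzymes, 2 of 27 tested members were called higher and 1 lower (median 0.11), with the sialidase NEU1 (−0.84 ± 0.12) lower and the glucosidase GAA (0.60 ± 0.08) higher. Of the ubiquitin-conjugating enzymes, 3 of 31 tested members were called higher and 0 lower (median −0.07), UBE2A (0.91 ± 0.17), UBE2T (0.66 ± 0.07) and UBE2B (0.52 ± 0.10). The UBE2B difference was 0.45 to 0.49 without siControl replicate 1 or 3 or siDDX60L replicate 1, and that of BAG3 −0.49 without siControl replicate 2 and −0.48 without siDDX60L replicate 2, all short of the limit.

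Genes of RNA synthesis and handling came next. In these lists 6.67 to 13% of tested members were called higher and 0 to 6.67% lower. These shares were near or below those over all tested genes, 10.2% and 7.34%. Among the arginine methyltransferases, 1 of 10 tested members was called higher and 0 lower (median 0.21), PRMT6. Among RNA polymerase II subunits, 1 of 12 tested members was called higher and 0 lower (median 0.04), POLR2D, at 17.8, 19.6 and 17.5 FPKM against 8.26, 7.9 and 6.79 FPKM (1.16 ± 0.07). Among snoRNP, nucleolar and Pol I factors, 2 of 30 tested members were called higher and 2 lower (median 0.10), NOLC1 (1.34 ± 0.13) and UBTF (0.54 ± 0.07) higher and NOP2 (−0.55 ± 0.08) and RRN3 (−0.62 ± 0.04, a guide match) lower. Among stress granule and decay factors, 3 of 23 tested members were called higher and 0 lower (median 0.16). G3BP2, which nucleates stress granules, was at 83.6, 99.3 and 93.7 FPKM against 35.7, 35.2 and 35.5 FPKM (1.35 ± 0.06, adjusted p = 2.6e-09), with PABPC4 at 0.73 ± 0.06 and EDC3 at 0.62 ± 0.08. Among alternative splicing regulators, 3 of 28 tested members were called higher and 1 lower (median 0.12), MBNL2 lower at 11.2, 14.5 and 11 FPKM against 36.8, 47.2 and 47.6 FPKM, and CELF1 (0.54 ± 0.09), HNRNPA1 (0.52 ± 0.11) and SRSF3 (0.50 ± 0.07) higher. With the median of ratios 0 splicing regulators were called higher. The call of CELF1 was lost without replicate 2 of siDDX60L (0.47) or siControl (0.49), that of HNRNPA1 without siDDX60L replicate 1 or 3 or siControl replicate 2 (0.42 to 0.47), and that of SRSF3 without siDDX60L replicate 1 or 2 or siControl replicate 1 (0.42 to 0.49). The calls of UBTF (0.47 without siControl replicate 3) and NOP2 (−0.49 without siControl replicate 1) were lost too.

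Metallothioneins, which bind zinc and copper, went both ways. Of the list with zinc exporters, 3 of 7 tested members were called higher and 2 lower (median 0.46). MT1E was at 113, 116 and 105 FPKM after siDDX60L, against 42.4, 44.9 and 41.5 FPKM after siControl (1.35 ± 0.08, adjusted p = 5.8e-08), and MT1A at 36.2, 39.9 and 36.1 FPKM against 79.8, 76.6 and 79.9 FPKM (−1.06 ± 0.11, adjusted p = 6.8e-06). The metal-responsive factor MTF1 (0.74 ± 0.05) and MT1F (0.73 ± 0.19) were higher. Metallothionein genes are close copies, so the share of reads each received is uncertain. Of the NRF2 and oxidative stress genes, 2 of 20 tested members were called higher and 2 lower (median −0.14), with HMOX1 (0.64 ± 0.05) and ABCC3 (0.56 ± 0.08) higher and SRXN1 (−0.55 ± 0.07) lower. These NRF2 shares (10% each) were near those over all tested genes, 10.2% and 7.34%. In the NRF2 list 1 gene was called higher and 3 lower with the median of ratios.

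**Figure D5:**
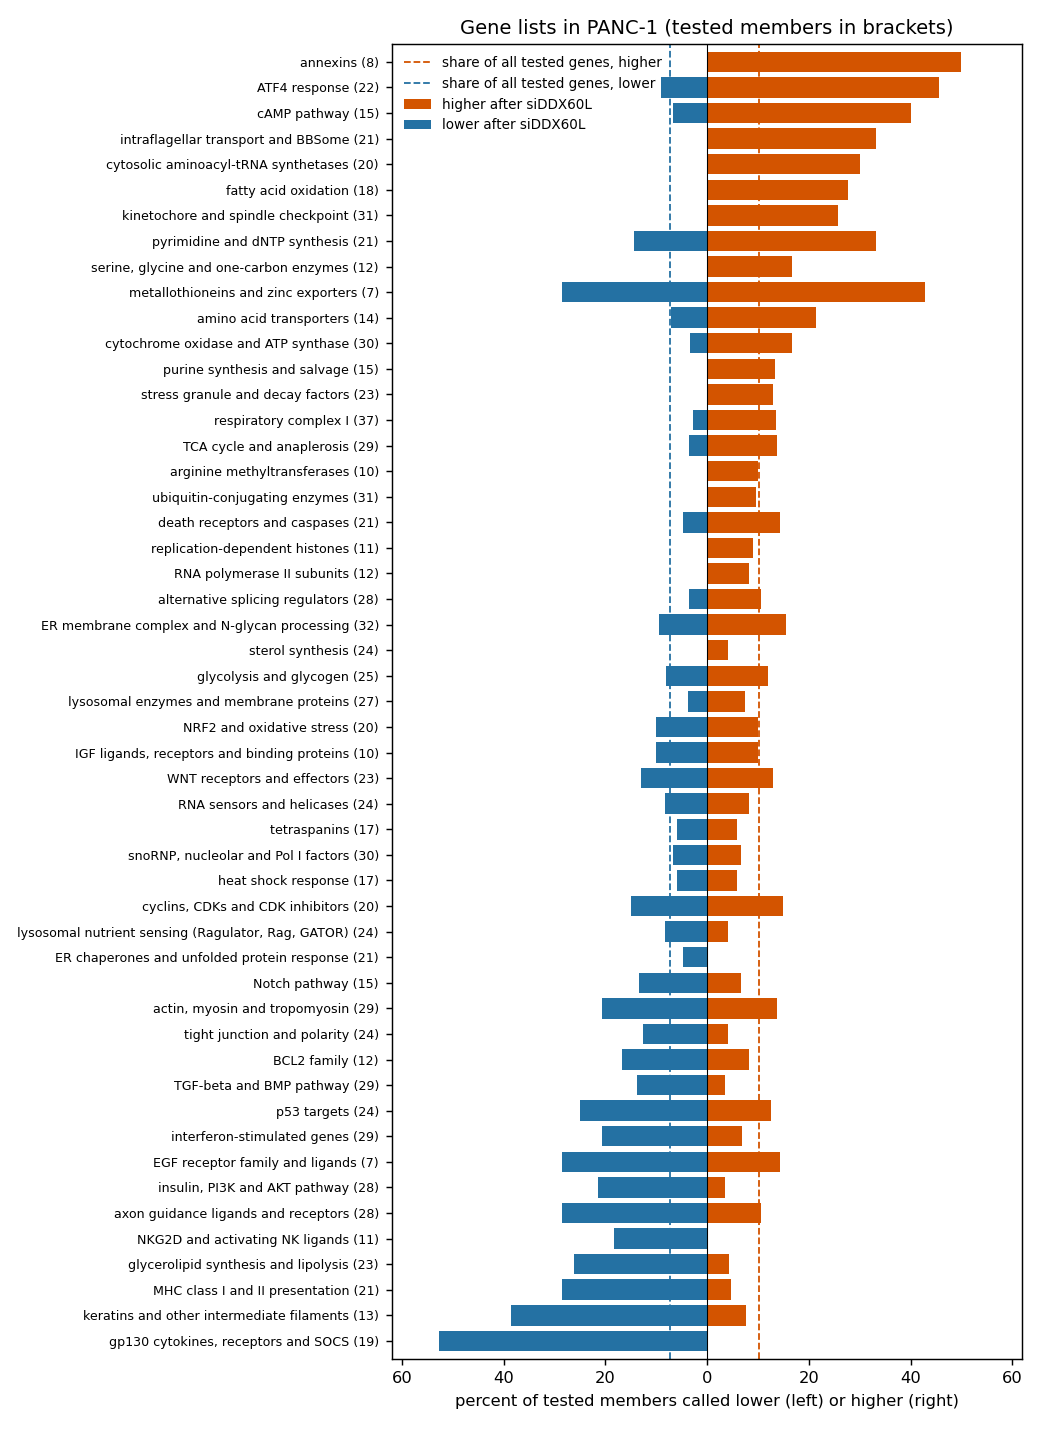
Percent of the tested members of each of 51 gene lists called lower (left) or higher (right) after siDDX60L against siControl in PANC-1, with the number of tested members in brackets; dashed lines mark the shares over all tested genes, 7.34% lower and 10.2% higher. Annexins and the ATF4 response reach furthest right at the top, and gp130 cytokines with SOCS furthest left at the bottom.

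By absolute level, the abundant genes that rose included the ribosomal protein genes RPS12, RPLP1 and RPS27A, TM4SF1 and HSPD1. Ribosomal protein genes have many near-identical copies in the genome, so their reads are uncertain. RPS12 was at 763, 713 and 676 FPKM after siDDX60L, against 374, 405 and 393 FPKM after siControl (0.87 ± 0.06). RPLP1 was at 834, 779.5 and 516 FPKM, with replicate 3 the lowest, against 369, 397 and 383 FPKM (0.86 ± 0.19). The membrane protein TM4SF1 was at 490.4, 505 and 489.8 FPKM against 263, 328 and 272 FPKM (0.79 ± 0.07). Besides these keratins, S100A6 and B2M, the abundant genes that fell were the actin crosslinker ACTN4, at 1122, 1078 and 1052 FPKM against 1577, 1589 and 1598 FPKM (−0.55 ± 0.04), and the chromatin protein HMGA1, at 466, 433 and 465 FPKM against 866, 864 and 834 FPKM (−0.91 ± 0.06). Among the called genes, 13 had 1 siDDX60L or siControl library over 3 times from the median of its group.

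The siDDX60L effect was set against that in MiaPaCa2, where the DDX60L difference was −1.27 ± 0.13. This cannot be read as a stronger knockdown, since the pseudocount bounds falls from the low PANC-1 level of DDX60L. Of the 12513 genes, 973 (7.78%) were called higher and 804 (6.43%) lower in MiaPaCa2. Of the 1276 genes called higher in PANC-1, 479 were called higher in MiaPaCa2 too and 7 lower, and of the 919 called lower, 338 were lower and 12 higher. Tested as an interaction, the effect was higher in PANC-1 than in MiaPaCa2 for 708 genes (5.66%) and lower for 654 (5.23%). KRT8 and KRT18 had the effect lower in PANC-1, at −0.23 ± 0.10 and −0.04 ± 0.04 in MiaPaCa2 (differences between the lines −1.49 ± 0.14 and −1.54 ± 0.05). PRMT6 (1.59 ± 0.07 in MiaPaCa2, difference −0.05 ± 0.10), ZW10 (1.54 ± 0.05, −0.03 ± 0.07) and VOPP1 (1.41 ± 0.06, −0.04 ± 0.08) were not called as different between the lines.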

How the data were processed

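The 30 RNA-seq libraries cover 5 siRNA groups of 3 in PANC-1 and in MiaPaCa2. The FPKM values were deposited by the authors as 1 table of 24895 entries (19974 with an Ensembl identifier). Reads were mapped to GRCh37 with TopHat2 2.0.12, per the submitters' processing notes. The annotation was an Ensembl release for GRCh37, per the study's methods, while no source used here names the program behind the FPKM. The values do not keep read counts, since too few low values lay on whole-read steps, and the study gives only an approximate read number, so the depth of each library is unknown and no count test was run. All sample columns were matched by name, and groups came from the labels.

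FPKM were transformed as log2(FPKM + 1). Entries with a mean of at least 1 FPKM in PANC-1 were fitted with limma 3.58.1 (lmFit and eBayes with trend, R 4.3.3) over all 15 PANC-1 libraries, and p-values were adjusted by Benjamini-Hochberg over all of them. Further contrasts set siDDX60L against the other 3 siRNAs, and the interaction with the line used all 30 libraries. The fits were tested on simulated data. Same-numbered siDDX60L and siControl libraries did not deviate together (correlations 0.01, −0.05 and −0.01), so the groups were not paired. The alternatives were a pseudocount of 0.1, no filter, a mean of at least 5 FPKM, scaling by the median of ratios, only the groups compared, a replicate block, and leaving out each library.

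The genes and the 52 lists were chosen with earlier results of these data known. Named genes were the 4 targets, the 12 largest called rises and 12 falls, the 6 largest each way by mean FPKM, up to 4 called members per list plus the largest in the less common direction, the 10 each way called against all other PANC-1 groups, and the 6 each way with the largest difference between lines. Genes with identifiers, at least 5 FPKM over the 6 libraries and groups that do not overlap were eligible, except for targets and list members. The 4 lists of NF-kB, invasion, replication and YAP genes were left out, and some genes and 1 further list are not reported here. Seed matches were counted in 3′ UTRs annotated on GRCh37, and the siRNA sequences came from the study's list of oligonucleotides.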

Additional observations from a re-analysis of the deposited data

Results flagged for a closer look

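For 12 named genes the siDDX60L effect (siDDX60L minus siControl, log2) differed between the lines by a limma interaction term over all 30 libraries, adjusted over all genes. On the log2(FPKM + 1) scale DDX60L fell less in PANC-1 (−0.55 ± 0.12) than in MiaPaCa2 (−1.27 ± 0.13). The difference was 0.72 (adjusted p = 0.0038). At its PANC-1 siControl level (1.06, 1.35 and 1.52 FPKM) the pseudocount bounds the fall on this scale. The difference is therefore no measure of how well DDX60L was knocked down in each line. Effects higher in PANC-1 were also those of CCDC117 (2.17), the septin SEPTIN9 (1.62), the transcription factor ELF4 (1.48), CDKN1A (1.48) and the WNT inhibitor DKK1 (1.31). In PANC-1 their effects were 1.23 ± 0.37, 1.30 ± 0.14, 0.87 ± 0.22, −0.78 ± 0.28 and 1.21 ± 0.04 in that order, and in MiaPaCa2 −0.94 ± 0.43, −0.33 ± 0.18, −0.61 ± 0.29, −2.26 ± 0.23 and −0.10 ± 0.04. The CCDC117 and CDKN1A calls against siControl were lost when single libraries were left out.

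Effects lower in PANC-1 were those of C4orf48 (difference −2.77), IGF2 (−2.41), CITED4 (−2.04), the neuronal protein gene CEND1 (−1.75), TMEM59L (−1.72) and the GTPase RHOB (−1.65). IGF2 was at −2.28 ± 0.12 in PANC-1, against 0.13 ± 0.12 in MiaPaCa2, where its mean was 2.45 FPKM after siDDX60L and 2.12 FPKM after siControl. C4orf48 was at −1.92 ± 0.33 in PANC-1 and 0.85 ± 0.50 in MiaPaCa2, CITED4 at −1.77 ± 0.24 and 0.27 ± 0.28, CEND1 at −1.50 ± 0.10 and 0.26 ± 0.09, TMEM59L at −1.23 ± 0.12 and 0.49 ± 0.13, and RHOB at −0.76 ± 0.07 and 0.88 ± 0.07. What sets the lines apart was not tested.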

How the results depend on the processing

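Counts of called genes were 1276 higher and 919 lower, and 1277 and 917 with a replicate block. Leaving out 1 library of either group compared gave 1260 to 1359 higher and 914 to 971 lower, 1822 to 1872 and 1130 to 1144 against siMYEOV, 1579 to 1617 and 1202 to 1240 against siKCNN4, 1260 to 1333 and 1705 to 1747 against siS100A16, 68 to 76 and 106 to 110 against every other group (siDDX60L libraries), and 1314 to 1480 for the difference between lines (libraries of either line). A filter of 5 FPKM, which tests fewer genes (8969), moved 3 counts past 1.5 times: 1171 higher than siMYEOV (1841 at 1 FPKM), 34 higher than every other group (71) and 890 different between lines (1362). The other counts stayed within 1.5 times under each alternative. Of 236 results on named genes, 194 kept direction and call in every alternative, 42 lost the call in at least 1 and 0 reversed. The median of ratios ended 21 of these calls, the block 2 (ADSL and CLDN12), no filter 7, only the groups compared 4 and a pseudocount of 0.1 ended 1. The calls of SLC7A5, TFE3 and CDKN1A were lost without any 1 of the 6 libraries, and that of CLDN12 without any 1 but siControl replicate 2. For CDKN1A the siDDX60L and siControl libraries did not overlap, and the SE also drew on the spread within the other PANC-1 groups. What ended these calls was not tested. FPKM carry no depth, so the limits set by counting are unknown, and levels near 1 FPKM, DDX60L included, are compressed by the pseudocount.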
